A study of Rattus norvegicus with 12 samples.

Results

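The genes described here are Lrrn1, Galnt5, Pdlim2, Mchr1 and Plcd4, each measured by 1 probe set (10857541, 10836298, 10784968, 10897897 and 10924335) among the 18957 probe sets detected in newborn rat hind leg muscle. They were picked because every array of the low protein diet lay above every array of the control diet, so the values of those arrays chose the genes and that contrast is given as a description only. Wistar dams received, from day 1 of gestation, a low protein diet with 2% w/v taurine in the drinking water (LP+tau), a low protein diet alone (LP), or a control diet. Muscle of 3 newborn male pups of 1 dam was pooled for each Affymetrix array, and each diet had 4 arrays from 4 dams, so the dam was the replicate, differences between pups of a litter were not measured and no females were included. The diets acted on the dam, and both LP+tau and LP offspring came from dams with restricted protein. Taurine was not given on a control diet in the samples used here, so an effect of taurine apart from the low protein diet was not measured.

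The 5 genes belong to different systems. Leucine-rich repeat membrane proteins such as Lrrn1 act in cell adhesion and in the patterning of the nervous system, and Galnt5 encodes one of the transferases that begin mucin-type O-glycosylation by adding N-acetylgalactosamine to serine and threonine. Pdlim2 carries a PDZ and a LIM domain, binds the actin cytoskeleton and, in mouse, acts as a ubiquitin ligase that limits STAT4 and the p65 subunit of NF-kB; Mchr1 is the receptor of melanin-concentrating hormone, a hypothalamic peptide of feeding and energy balance, and couples to Gi and Gq proteins; Plcd4 is a delta isoform of phospholipase C, which splits a membrane phosphoinositide into inositol trisphosphate and diacylglycerol. Taurine is an amino sulphonic acid abundant in muscle, and in rodents the maternal low protein diet is a standard model of growth restriction before birth.

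To show sequence before a start of these genes, 250 bases are shown before the start that the RefSeq promoter table (GRCr8) used for each. It held 3 of the 5 genes, and no entry matched Pdlim2 and Mchr1. The sequences run 5′ to 3′ on the strand of the gene, and capitals mark matches to the E-box letters CANNTG, the core bound by MyoD family and other basic helix-loop-helix factors.
Lrrn1, chr4:142069015-142069264, plus strand: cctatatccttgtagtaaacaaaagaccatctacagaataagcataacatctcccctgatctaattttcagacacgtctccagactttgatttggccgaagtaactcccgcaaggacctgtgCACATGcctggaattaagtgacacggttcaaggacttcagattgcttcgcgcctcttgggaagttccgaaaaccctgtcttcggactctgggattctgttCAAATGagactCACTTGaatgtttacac
Galnt5, chr3:62982215-62982464, plus strand: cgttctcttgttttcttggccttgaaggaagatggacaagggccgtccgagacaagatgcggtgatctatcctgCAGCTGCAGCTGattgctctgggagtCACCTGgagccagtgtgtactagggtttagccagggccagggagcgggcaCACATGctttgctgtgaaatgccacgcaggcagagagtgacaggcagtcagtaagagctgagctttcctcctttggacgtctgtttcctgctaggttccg
Plcd4, chr9:83566014-83566263, plus strand: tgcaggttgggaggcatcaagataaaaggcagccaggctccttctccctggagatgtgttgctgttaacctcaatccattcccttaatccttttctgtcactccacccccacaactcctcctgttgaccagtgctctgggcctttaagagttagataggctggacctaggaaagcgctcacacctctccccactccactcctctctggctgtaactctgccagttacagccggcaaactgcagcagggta
The windows of Lrrn1 and Plcd4 lie inside the annotated span of the gene and that of Galnt5 does not. For Lrrn1 and Plcd4 the start used is therefore not the first base of the annotated gene. Lrrn1 held 3 E-box matches, Galnt5 held 4 and Plcd4 held 0, against a mean of 1.12 over all 33469 promoters of the table, of which 65.5% had at least 1 match. On either strand, none of the 3 windows held the TATA box TATAAA (in 12.9% of all promoters), the CCAAT box (its letters are its name; 34.0%) or the GC box GGGCGG (30.5%). None held the short core of the cyclic AMP response element, TGACG (18.2%), the start of the amino acid response element core, TGATGNA (10.3%), the MEF2 site (2.96%) or the CArG box (1.50%). These are descriptions of letters in the windows, and no letter pattern searched was present in all 3.

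Some arrays stood apart in markers of other tissues. Muscle markers were high on all arrays, with the mean log2 value of 12 measured markers of 14 listed between 12.21 and 12.42 in LP+tau, 12.16 and 12.28 in LP and 12.04 and 12.29 in control. Keratinocyte and other epithelial markers (6 of 12 measured) averaged 7.61 on LP+tau array 3, against 6.38 to 6.78 on the others. In LP they averaged 7.82 on array 4, against 6.33 to 6.95 on the others. In control they averaged 7.65 and 8.08 on arrays 3 and 4, against 6.62 and 6.55 on arrays 1 and 2. Their part in the values of the genes described was not tested. The mean of 14 measured hepatocyte markers of 20 listed was 6.61 to 7.30 in LP+tau and 6.74 to 7.96 in LP. In control it was 6.65 and 6.90 on arrays 1 and 2 but 10.46 and 11.40 on arrays 3 and 4, so results that use control arrays are also given without these 2. The median over all probe sets was 7.71 to 7.74 in LP+tau, 7.73 to 7.75 in LP and 7.66 to 7.67 in control, and the median difference over all probe sets was 0.00 for LP+tau minus LP, 0.06 for LP+tau minus control and 0.07 for LP minus control. No scan date or hybridisation batch is given in the sources used here.

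**Figure D1:**
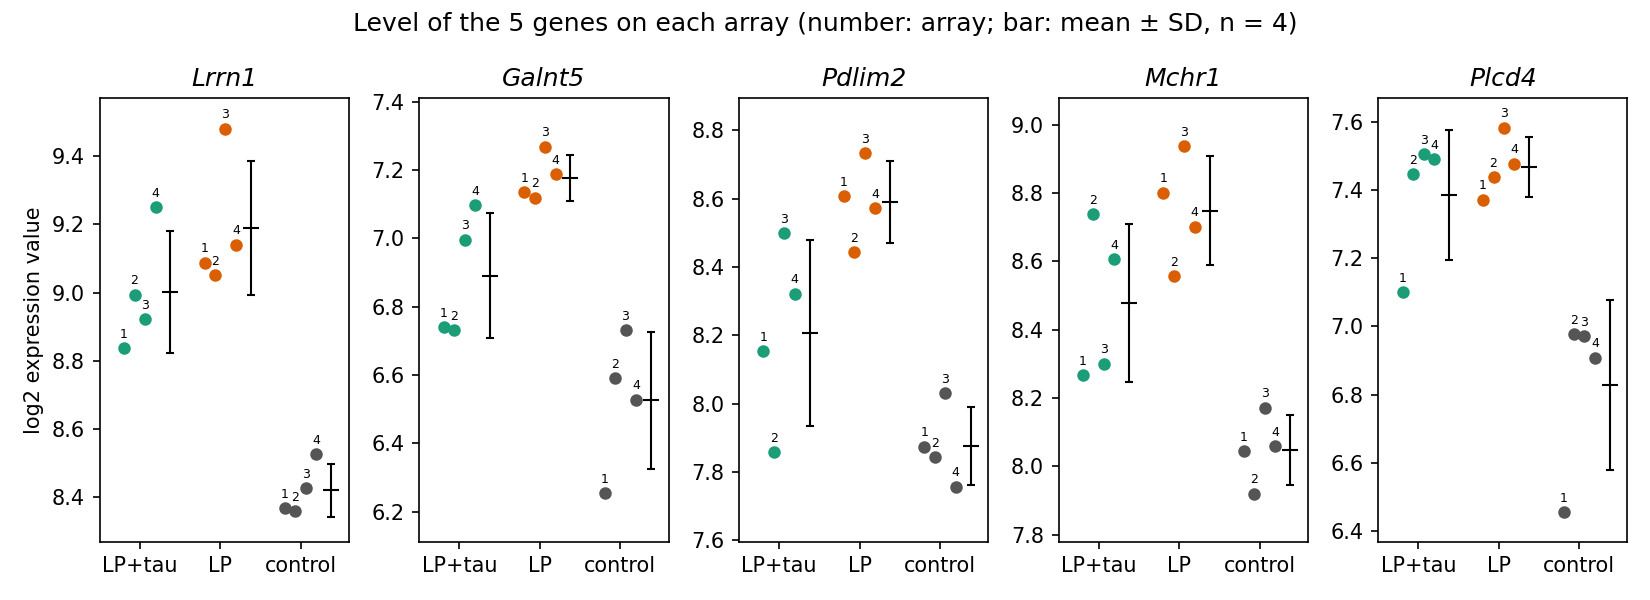
Log2 expression values (vertical axis, panels of equal height in log2 units) of the 5 genes on the 12 arrays, with LP+tau at the left, LP in the middle and control at the right of each panel. Numbers give the array within its diet and bars the mean ± SD (n = 4); every LP array lies above every control array by choice of the genes, and the LP+tau arrays reach into the LP range for all genes but Galnt5, and down to the control range for Pdlim2 and Galnt5 only.

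With taurine, the mean of all 5 genes lay between the LP mean and the control mean, and none of the 5 differences from LP passed the test over the whole table. In limma with Benjamini-Hochberg adjustment, LP+tau against LP called 0 of 18957 probe sets (0% higher and 0% lower), and 2047 had an unadjusted p under 0.05. The methods' t-test gave 1950 at that unadjusted level and 0 after the same adjustment. The LP arrays had chosen the genes by being high, which by itself favours a lower value in any other group, so the p-values below support no fall.

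Lrrn1, the membrane protein with leucine-rich repeats, had log2 values of 8.84, 8.99, 8.92 and 9.25 on the LP+tau arrays, 9.09, 9.05, 9.48 and 9.14 on the LP arrays, and 8.37, 8.36, 8.43 and 8.53 on the control arrays. All 4 LP+tau arrays were above all control arrays, and 3 of the 4 were below all LP arrays; array 4 exceeded 3 of the LP arrays. The means were 9.001 ± 0.18 in LP+tau, 9.19 ± 0.20 in LP and 8.42 ± 0.08 in control (SD, n = 4 each). LP+tau minus LP was -0.19 ± 0.10 (SE; 95% interval -0.41 to 0.03; limma adjusted p = 0.522), against 0.58 ± 0.10 for LP+tau minus control and 0.77 ± 0.10 for LP minus control. The distance of 0.52 between the lowest LP and the highest control array was rank 1 of all 18957 probe sets, which is part of what chose the gene.

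Galnt5, the O-glycosylation transferase, had 6.74, 6.73, 6.997 and 7.10 in LP+tau, 7.13, 7.12, 7.27 and 7.19 in LP, and 6.25, 6.59, 6.73 and 6.53 in control. It was the member whose 4 LP+tau arrays all lay below all LP arrays, by 0.02 at the nearest pair, a pattern of 666 probe sets or 3.51% of all; none of the 5 genes had all LP+tau arrays above all LP arrays, as 3.35% of probe sets did. The lowest LP+tau array and the highest control array both read 6.73, so 3 of 4 LP+tau arrays were above all controls. The means were 6.89 ± 0.18 in LP+tau, 7.18 ± 0.07 in LP and 6.53 ± 0.20 in control, and LP+tau minus LP was -0.29 ± 0.10 (SE; 95% interval -0.51 to -0.06; limma adjusted p = 0.402). LP+tau minus control was 0.37 ± 0.10 and LP minus control 0.65 ± 0.10 (SE).

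Pdlim2, the PDZ and LIM protein, had 8.15, 7.86, 8.50 and 8.32 in LP+tau, 8.61, 8.44, 8.73 and 8.57 in LP, and 7.87, 7.84, 8.03 and 7.76 in control. LP+tau array 2 lay within the control range while array 3 lay within the LP range, the widest spread of the 5 genes in that diet. The means were 8.21 ± 0.27 in LP+tau, 8.59 ± 0.12 in LP and 7.88 ± 0.11 in control. LP+tau minus LP was -0.38 ± 0.12 (SE; 95% interval -0.63 to -0.13; limma adjusted p = 0.367), with 3 of 4 arrays below all LP arrays. LP+tau minus control was 0.33 ± 0.12 and LP minus control 0.71 ± 0.12 (SE).

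Mchr1, the receptor of melanin-concentrating hormone, had 8.27, 8.74, 8.30 and 8.61 in LP+tau, 8.80, 8.56, 8.94 and 8.70 in LP, and 8.04, 7.92, 8.17 and 8.06 in control. The LP+tau arrays formed a low pair, arrays 1 and 3, below all LP arrays, and a high pair, arrays 2 and 4, within the LP range; all 4 were above all controls, but 3 after quantile normalization and 2 after cyclic loess. The means were 8.48 ± 0.23 in LP+tau, 8.75 ± 0.16 in LP and 8.05 ± 0.10 in control. LP+tau minus LP was -0.27 ± 0.11 (SE; 95% interval -0.51 to -0.03; limma adjusted p = 0.4285), against 0.43 ± 0.11 for LP+tau minus control and 0.70 ± 0.11 for LP minus control. Pmch, which encodes the ligand, is not named among the detected probe sets used here.

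Plcd4, the phospholipase C isoform, had 7.10, 7.45, 7.50 and 7.49 in LP+tau, 7.37, 7.44, 7.58 and 7.48 in LP, and 6.46, 6.98, 6.97 and 6.91 in control. Array 1 alone lay below all LP arrays, the other 3 LP+tau arrays were within the LP range, and all 4 were above all controls. The means were 7.38 ± 0.19 in LP+tau, 7.47 ± 0.09 in LP and 6.83 ± 0.25 in control, and LP+tau minus LP was -0.08 ± 0.12 (SE; 95% interval -0.34 to 0.18; limma adjusted p = 0.812). Without LP+tau array 1 this difference was 0.01 (limma adjusted p = 0.9805). LP+tau minus control was 0.56 ± 0.12 and LP minus control 0.64 ± 0.12 (SE).

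**Figure D2:**
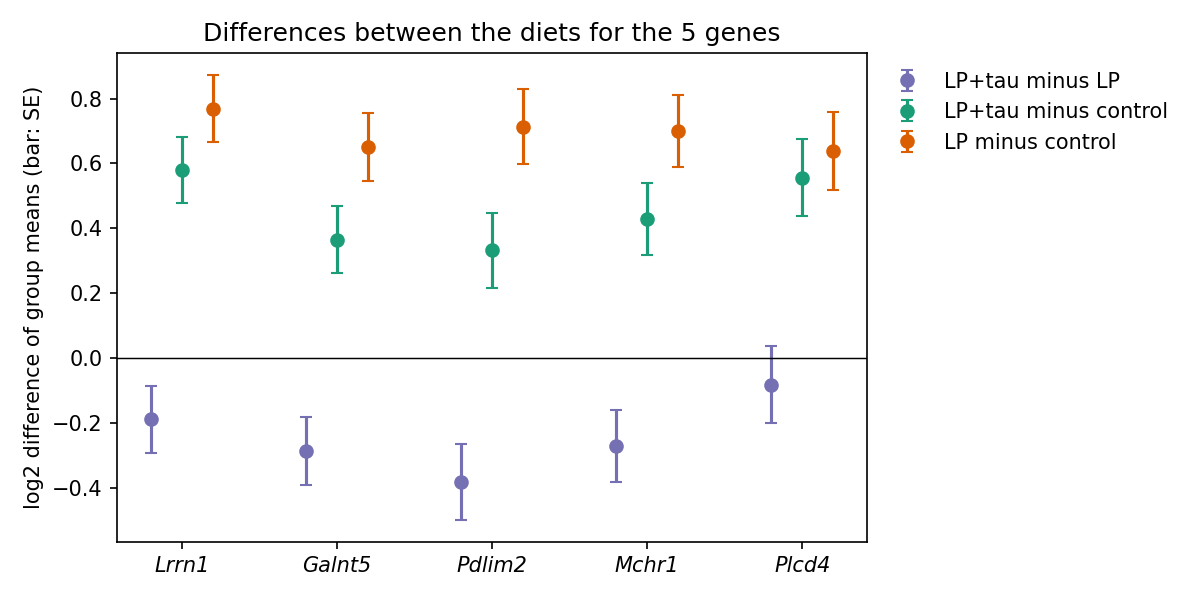
Differences of group means on the log2 scale (vertical axis; bars are the SE of the limma fit) for the 5 genes, with LP+tau minus LP, LP+tau minus control and LP minus control from left to right. LP+tau minus LP runs from -0.38 for Pdlim2 to -0.08 for Plcd4, while LP minus control runs from 0.64 to 0.77.

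Of the 5 genes, 3 (Pdlim2, Galnt5 and Mchr1) had an unadjusted limma p under 0.05 for LP+tau against LP (0.00621, 0.0168 and 0.0292), where 1045 probe sets, or 5.51%, were lower at that level and 1002, or 5.29%, were higher. The other 2, Lrrn1 and Plcd4, had 0.0895 and 0.506 (limma, unadjusted). The 5 intervals overlap: each contains the values between -0.34 and -0.13, so the order of the genes was not resolved by the fit, and differences between genes were not tested. An exact two-sided permutation test of the 4 against 4 arrays gave p = 0.02857 for Galnt5, which is the smallest it can give, and p = 0.05714 for Pdlim2, 0.1429 for Mchr1, 0.2286 for Lrrn1 and 0.6286 for Plcd4.

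The place of LP+tau for each gene can be given as its position between the control mean (0%) and the LP mean (100%). High LP and low control arrays chose the genes, which by itself favours a position between these ends. The positions are therefore a description and by themselves support no effect of taurine. Plcd4 stood at 87.2%, Lrrn1 at 75.4%, Mchr1 at 61.3%, Galnt5 at 56.1% and Pdlim2 at 46.5%. The arrays of a gene were far apart: Pdlim2 had 38.8%, -2.54%, 87.3% and 62.5% on LP+tau arrays 1 to 4, and Mchr1 had 31.1%, 98.5%, 35.9% and 79.6%. Lrrn1 had 54.1%, 74.4%, 65.2% and 107.9%, Galnt5 had 32.8%, 31.5%, 72.3% and 87.7%, and Plcd4 had 42.5%, 96.6%, 105.9% and 103.7%. Thus no gene had all 4 arrays on one side of the halfway point except Lrrn1, whose arrays all stood above it.

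**Figure D3:**
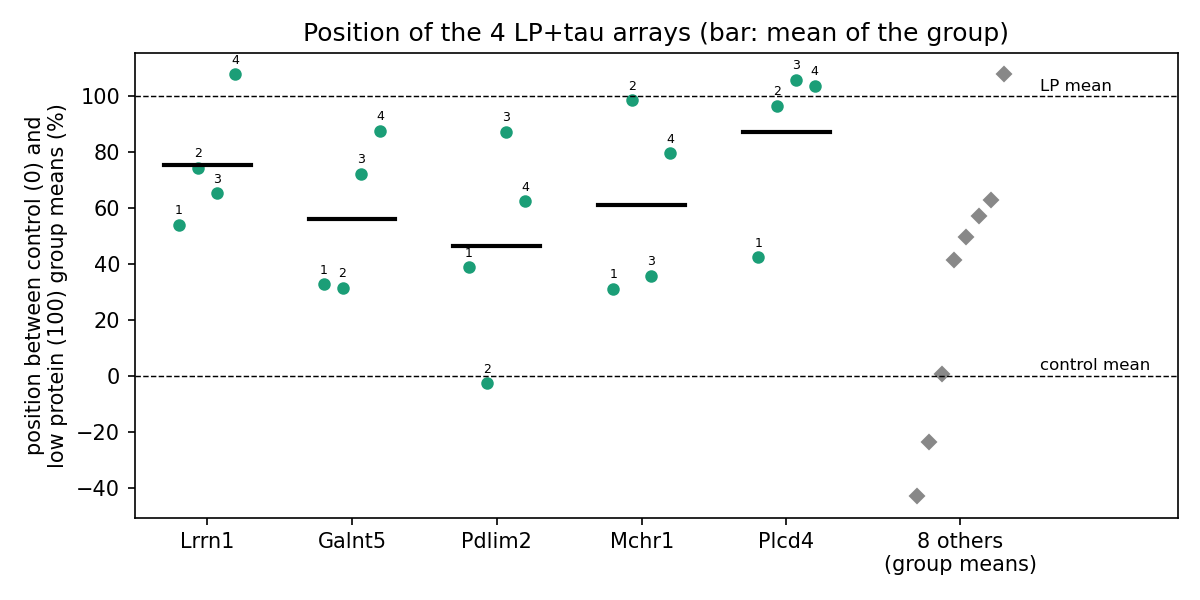
Position of the LP+tau arrays between the control mean (0) and the LP mean (100), in percent on the vertical axis, for the 5 genes (points with array numbers; bars are the positions of the group means) and for the 8 other probe sets chosen the same way (diamonds, group means). The 5 genes stand between 46.5% and 87.2%, inside the span of -43.1% to 107.9% of the 8 others.

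The 5 genes are part of a wide difference between LP and control. All LP arrays lay above all control arrays for 4208 probe sets, which is 22.2% of those tested, and for 13 of these the difference was at least that of Plcd4, the member with the smallest, at 0.64. Of the 13, LP+tau was below LP in the mean for 12, while the median difference over all probe sets was 0.00. The 13 were chosen for high LP arrays, which by itself favours a lower LP+tau mean, so the count supports no fall. All LP+tau arrays were above all controls for 5 of the 13, 3 of them members, against 2692 probe sets or 14.2% of all. The choice of low control arrays likewise favours this count. The median position of the 13 was 56.1% (quartiles 41.4% and 62.8%). Those near the edge of the rule were Rbp7, a retinol-binding protein, with the lowest LP array 0.04 above the highest control array, and Angptl4, an inhibitor of lipoprotein lipase, with 0.08. Both lay below the control mean with taurine, with means of 6.94 in LP+tau, 8.38 in LP and 7.21 in control for Rbp7, and 7.91, 8.97 and 8.23 in the same diets for Angptl4. Just outside the rule, Nabp1 missed it by 0.15, with means of 6.45 in LP+tau, 7.04 in LP and 6.35 in control. Car5b, a mitochondrial carbonic anhydrase, missed it by 0.75, with means of 6.91 in LP+tau, 8.17 in LP and 7.42 in control.

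The authors marked probe sets that taurine restored fully (LP+tau not different from control at their threshold) or in part (LP+tau different from LP and between the other means). In the authors' deposited table, Galnt5 and Pdlim2 carry the mark for partial rescue and Lrrn1, Mchr1 and Plcd4 carry no mark, and their deposited p-values for LP against LP+tau are 0.003525 for Galnt5, 0.01039 for Pdlim2, 0.05418 for Mchr1, 0.1545 for Lrrn1 and 0.439 for Plcd4. These p-values equal a t statistic read against the normal distribution in 895 of 895 rows (tolerance 1e-04), and equal the t distribution with 6 degrees of freedom in 0 rows. The deposited descriptions name the standard test of that statistic, which uses the t distribution. Run so, the methods' t-test gave 0.02671 for Galnt5, 0.04276 for Pdlim2, 0.1025 for Mchr1, 0.2044 for Lrrn1 and 0.4684 for Plcd4, unadjusted. For Pdlim2, LP+tau against control has a p of 0.02488 in the authors' deposited table and 0.06605 against the t distribution, so by the stated definitions the mark of Pdlim2 would read full and not partial rescue. Over the table, the 88 full and 195 partial marks were recovered row for row with the normal distribution, and would be 146 full and 100 partial with the t distribution.

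Within a diet, the 5 genes varied together in part. LP+tau array 4 was above its group mean for all 5 genes and LP+tau array 1 for 0 of 5, with mean deviations of 0.16 and -0.17. Among LP arrays, array 3 was above for 5 of 5 (mean 0.17) and array 2 for 0 of 5 (mean -0.11), and among controls array 3 was above for 5 of 5 (mean 0.13) and array 1 for 0 of 5 (mean -0.14). LP array 2 had the highest hepatocyte mean of its diet (7.96) and control array 3 one of the 2 high ones (10.46); the part of either in these deviations was not tested. The correlation of the 12 deviations from the group means had a median r of 0.40 over the 10 pairs of genes and was above 0 in 9. It ran from -0.13 for Pdlim2 with Mchr1 to 0.82 for Galnt5 with Plcd4. The points share the arrays and their normalization, and the values are given as a description.

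**Figure D4:**
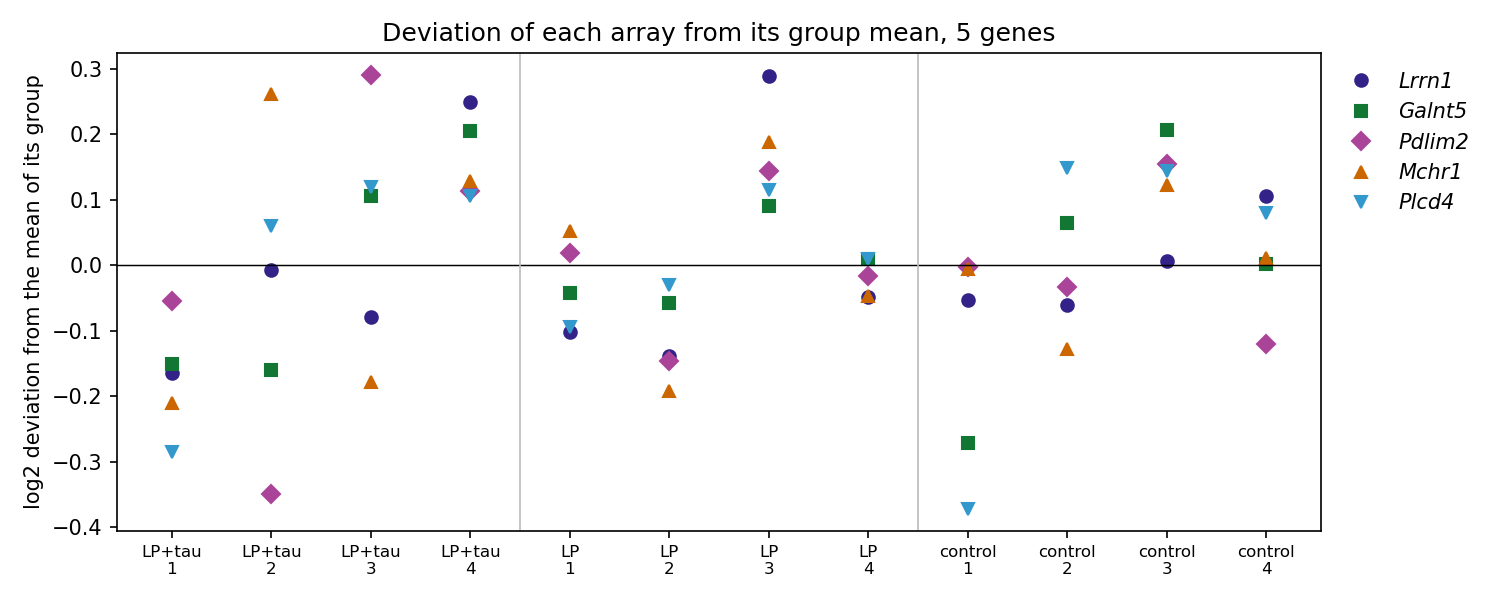
Deviation of each array from the mean of its diet on the log2 scale (vertical axis) for the 5 genes (symbols), with the 4 arrays of LP+tau, LP and control from left to right. All 5 genes lie above 0 on LP+tau array 4, LP array 3 and control array 3, and below 0 on LP+tau array 1, LP array 2 and control array 1.

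The genes whose levels followed each member most closely over the 12 arrays are given with Pearson's r, which includes the differences between diets that chose the members. They were Trappc9 (0.96), Tbrg1 (0.95) and Nfic (0.95) for Lrrn1, and Puf60 (0.98), Rasl11b (0.97) and Deaf1 (0.97) for Galnt5. For Pdlim2 they were Chst14 (0.98), Gna11 (0.97) and Fibp (0.97). Mchr1 was followed by Lsamp (0.95), Mecom (0.94) and Slit3 (0.93), and Plcd4 by Riox2 (0.96), Strap (0.94) and Adgrl3 (0.94). Within the diets, the correlation of deviations was 0.64 to 0.96 for these 15 genes. The r that chose them includes these deviations, so high values are favoured by the choice. Chst14 is a dermatan sulphate sulphotransferase and Gna11 a G protein alpha subunit of the Gq class; nothing is read from the likeness about what the genes share.

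The rest of each gene's system was described with lists of 158 other measured genes, and none of them passed for LP+tau against LP. For LP against control, limma called 47 of the 158 higher (29.7%) and 9 lower (5.70%), beside 21.8% and 11.9% of all probe sets. For LP+tau against control it called 23 higher (14.6%) and 0 lower, beside 10.2% and 3.60% of all. These counts depended on the scaling: for LP against control they were 10 higher and 2 lower after quantile normalization, 6 and 12 after centring each array on its median, 6 and 2 after cyclic loess, and 14 and 4 without control arrays 3 and 4. The share called higher was then 6.33%, 3.80%, 3.80% and 8.86% of the list genes in that order, below the 8.03%, 7.94%, 4.98% and 10.8% of all probe sets, so its place above the share of all probe sets in the deposited values turned round in each. For LP+tau against control they were 7 and 0, 6 and 1, 5 and 0, and 5 and 1 in the same order, or 4.43%, 3.80%, 3.16% and 3.16% higher beside 2.92%, 3.16%, 1.76% and 2.07% of all. Single arrays also moved them: the 47 became 29 without LP array 2, 25 without LP array 3, 31 without control array 1 and 22 without control array 3, and the 9 became 3, 4, 5 and 5. The 23 became 4, 14 and 9 without LP+tau arrays 1, 3 and 4, 15 without LP array 3, and 13, 6 and 13 without control arrays 1, 3 and 4. The 37 named differences below from LP or LP+tau to control kept their direction under the 3 scalings and without control arrays 3 and 4, and 3 stayed past the threshold in all of these 4 settings: Elfn1, Prkcq and Dgkb. The named genes were not followed with single arrays left out. Over all probe sets, 64.6% of the calls for LP against control were higher, against 51.1% after quantile normalization and 36.9% after cyclic loess, and for LP+tau against control 73.9%, against 46.1% and 29.3%.

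Among 26 measured leucine-rich repeat membrane proteins other than Lrrn1, 5 rose (19.2%, beside 21.8% of all probe sets) and 1 fell in LP against control. Higher and lower calls became 3 and 1 after quantile normalization, 1 and 3 after median centring, 2 and 1 after cyclic loess, and 1 and 1 without control arrays 3 and 4. Slitrk4, a neuronal membrane protein, was 0.54 higher (limma adjusted p = 0.01503) and Amigo1, an adhesion protein of neurites, 0.22 higher (limma adjusted p = 0.01527). Elfn1, a synaptic membrane protein, was lower, with means of 6.29 in LP and 6.60 in control (difference -0.31, limma adjusted p = 0.007408). With taurine, Slitrk1 was 0.36 higher than control (limma adjusted p = 0.04234). Lrrc4c had the smallest p for LP+tau against LP and did not pass (difference 0.16, limma adjusted p = 0.4308).

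Among 18 measured O-glycosylation enzymes other than Galnt5, 6 rose (33.3%, beside 21.8% of all probe sets) and 3 fell (16.7%, beside 11.9%) in LP against control. Higher and lower calls became 2 and 0, 1 and 3, 1 and 0, and 2 and 3 in the same order of settings, so the balance turned after median centring and without control arrays 3 and 4. St6galnac3, a sialyltransferase of O-glycans, had means of 7.28 in LP+tau, 7.31 in LP and 6.98 in control, and was higher than control by 0.30 with taurine (limma adjusted p = 0.02739) and by 0.33 in LP (limma adjusted p = 0.009769). B3gnt3 and B3gnt6, glycosyltransferases of O-glycans, were lower in LP than in control, with differences of -0.33 and -0.26 (limma adjusted p = 0.01262 and 0.01283). Their levels were low, with means of 6.22 in LP and 6.55 in control for B3gnt3 and 6.51 and 6.77 for B3gnt6. The lowest array median was 7.66. St3gal2, another sialyltransferase, had a difference of -0.21 for LP+tau minus LP and did not pass (limma adjusted p = 0.3526).

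The list of PDZ-LIM and LIM proteins of the Z-disc and cytoskeleton also held actinins, myozenins and myotilin, Z-disc proteins without a LIM domain. Of its 27 measured genes other than Pdlim2, 8 rose with taurine and 7 in LP, each against control, and 0 fell. These were 29.6% and 25.9%, beside 10.2% and 21.8% of all probe sets. Under the 3 scalings and without control arrays 3 and 4, the 8 became 1, 2, 1 and 0. The 7 became 1, 1, 0 and 1. Tgfb1i1, the focal adhesion protein Hic-5, was 0.42 higher in LP+tau than in control (limma adjusted p = 0.01225), and Csrp1 was 0.19 higher (limma adjusted p = 0.02707). Fhl3, a LIM-only protein of muscle, was higher by 0.34 in LP+tau (limma adjusted p = 0.01678) and by 0.35 in LP (limma adjusted p = 0.007095). Pdlim7 and Ablim1 were higher in LP by 0.31 and 0.35 (limma adjusted p = 0.01805 and 0.01897). The median LP+tau minus LP of this list was 0.12, above the 0.00 of all probe sets, while Pdlim2 itself stood at -0.38; Pdlim1, with 0.32, had the smallest p and did not pass (limma adjusted p = 0.4327).

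Of the 12 measured NF-kB and STAT genes, listed around the ligase role of Pdlim2, 2 rose in LP against control (16.7%, beside 21.8% of all probe sets), and 0 passed under each of the 3 scalings. Ikbkg, the regulatory subunit of the IkB kinase, was 0.16 higher (limma adjusted p = 0.03362) and Nfkbia, the inhibitor of NF-kB, 0.35 higher (limma adjusted p = 0.0368). Without control arrays 3 and 4 both calls were lost, while 2 other genes of the list were called higher (16.7%, beside 10.8% of all probe sets). The median of this list turned to -0.03 after cyclic loess, against 0.10 in the deposited values. With taurine none passed against control, and Rela, which encodes p65, had the smallest p at 0.19 (limma adjusted p = 0.05192). Stat3 had the smallest p for LP+tau against LP, at 0.23, and did not pass (limma adjusted p = 0.4347).

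Of 10 measured feeding peptide and receptor genes other than Mchr1, 1 rose and 5 fell in LP against control, the opposite side from Mchr1. The 5 (50% of the list, beside 11.9% of all probe sets) became 1 after quantile normalization, 5 after median centring and 1 after cyclic loess. Nmbr, the neuromedin B receptor, had means of 7.43 in LP+tau, 7.48 in LP and 7.21 in control, and was higher than control by 0.22 with taurine (limma adjusted p = 0.04134) and by 0.27 in LP (limma adjusted p = 0.01084). Hcrt, which encodes the orexins, and Galr1, a galanin receptor, were lower in LP than in control, with differences of -0.25 and -0.20 (limma adjusted p = 0.02452 and 0.03162). Their levels were low, with means of 6.48 in LP and 6.73 in control for Hcrt and 6.23 and 6.43 for Galr1. The lowest array median was 7.66. Without control arrays 3 and 4, 0 of the 10 passed for LP or for LP+tau against control. Galr1 had the smallest p for LP+tau against LP, at 0.13, and did not pass (limma adjusted p = 0.4819).

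Of 21 measured genes of Gi and Gq transduction, 8 rose in LP and 4 with taurine, each against control (38.1% and 19.0%, beside 21.8% and 10.2% of all probe sets), and 0 fell. The 8 became 2, 2, 1 and 2 and the 4 became 2, 1, 1 and 0 under the 3 scalings and without control arrays 3 and 4. In LP, Grk2, the kinase that desensitises receptors, was 0.34 higher (limma adjusted p = 0.005444), Gna11 0.35 higher (limma adjusted p = 0.008247) and Gnao1, a Go subunit, 0.24 higher (limma adjusted p = 0.02282). With taurine, Gnao1 was 0.25 higher (limma adjusted p = 0.03513), and Rgs4 and Rgs5, which speed the return of G proteins to rest, were 0.46 and 0.24 higher (limma adjusted p = 0.01738 and 0.03436). Adcy6, an adenylyl cyclase, had -0.19 for LP+tau minus LP and did not pass (limma adjusted p = 0.3559).

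Of 11 measured phospholipase C isoforms other than Plcd4, 3 rose in LP and 2 with taurine, each against control (27.3% and 18.2%, beside 21.8% and 10.2% of all probe sets). Plcg1, Plce1 and Plcb3 were higher in LP than in control by 0.20, 0.29 and 0.17 (limma adjusted p = 0.01441, 0.02709 and 0.04627), and Plcd1 and Plcb4 were higher in LP+tau than in control by 0.35 and 0.34 (limma adjusted p = 0.02544 and 0.04968). None of these passed under any of the 3 scalings or without control arrays 3 and 4. Plcb1 had the smallest p for LP+tau against LP, at -0.13, and did not pass (limma adjusted p = 0.5026).

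The list of inositol phosphate and diacylglycerol signalling held genes that make or carry phosphoinositides as well as genes downstream of phospholipase C. Of its 33 measured genes, 15 rose in LP and 6 with taurine, each against control, and 0 fell. These were 45.5% and 18.2%, beside 21.8% and 10.2% of all probe sets. Under the 3 scalings and without control arrays 3 and 4, the 15 became 1, 0, 1 and 6. The 6 became 3, 3, 2 and 3. Prkcd, a protein kinase C, Dgkz, a diacylglycerol kinase, and Pitpnb, a phosphatidylinositol transfer protein, were higher in LP by 0.22, 0.29 and 0.19 (limma adjusted p = 0.01226, 0.01462 and 0.0151). Prkcq, the protein kinase C isoform prominent in skeletal muscle, had means of 7.96 in LP+tau, 7.79 in LP and 7.57 in control, and was 0.39 higher with taurine than in control (limma adjusted p = 0.009387). Prkce and Dgkb were 0.30 and 0.43 higher with taurine (limma adjusted p = 0.01225 and 0.017). Prkcq also had the smallest p for LP+tau against LP, at 0.17, and did not pass (limma adjusted p = 0.4191).

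**Figure D5:**
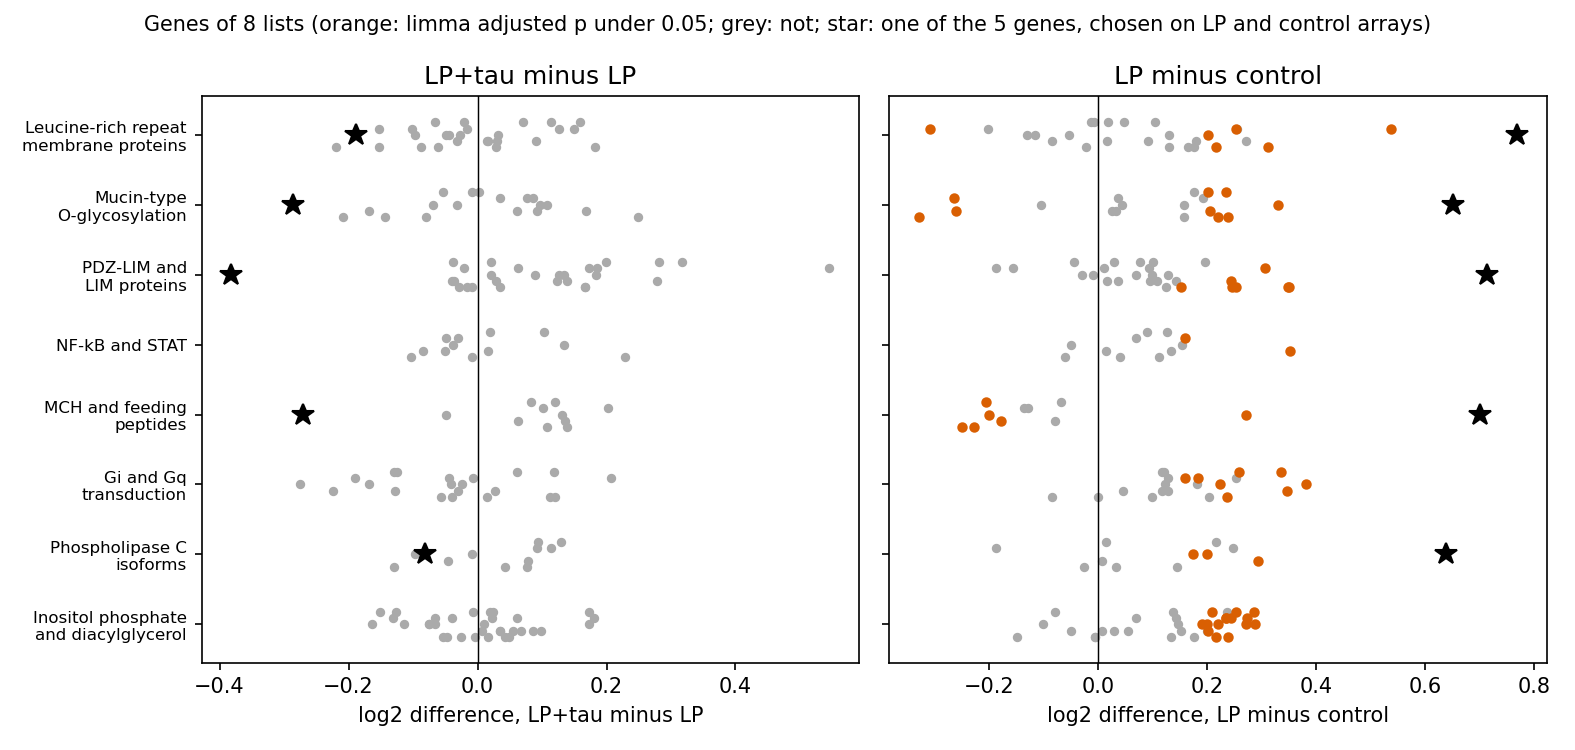
Log2 differences (horizontal axes) of the genes of the 8 lists (rows) for LP+tau minus LP at the left and LP minus control at the right. Orange points passed the limma test, grey points did not and stars are the 5 genes; no list gene passed for LP+tau minus LP, and the stars lie beyond the list genes for LP minus control, by which the 5 were chosen.

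In bulk RNA, more cells of a type and more RNA per cell cannot be told apart, and markers of several cell types also differed between LP and control. Satellite cell markers (5 of 8 measured) averaged 8.16 to 8.33 on the LP arrays and 7.85 to 8.10 on the control arrays, endothelial markers (10 of 10) 8.80 to 8.84 and 8.51 to 8.69, and smooth muscle and pericyte markers (9 of 9) 9.38 to 9.50 and 9.12 to 9.30. Fibroblast and tendon markers (9 of 10) averaged 10.54 to 10.68 in LP and 10.26 to 10.52 in control. For the means of the 4 lists all LP arrays lay above all control arrays, as was so for 22.2% of single probe sets. A mean over several genes and a single probe set are unlike measures. In these lists, 3, 6, 5 and 5 genes were called higher by limma (60%, 60%, 55.6% and 55.6%, beside 21.8% of all probe sets). The counts became 0, 1, 2 and 0 after quantile normalization (0%, 10%, 22.2% and 0%, beside 8.03% of all). After median centring they were 1, 3, 3 and 1 (20%, 30%, 33.3% and 11.1%, beside 7.94% of all). After cyclic loess they were 0, 1, 0 and 0 (0%, 10%, 0% and 0%, beside 4.98% of all). Without control arrays 3 and 4 the counts were 1, 2, 1 and 0 (20%, 20%, 11.1% and 0%, beside 10.8% of all). The erythroid list went the other way: 3 of 8 measured markers were lower in LP than in control (37.5%, beside 11.9% of all probe sets). They were 3, 4 and 3 after the scalings but 1 without control arrays 3 and 4. Of 11 leukocyte markers, 2 were lower (18.2%, beside 11.9% of all) and 0 higher. The median LP minus control of the leukocyte list was 0.08, beside 0.07 over all probe sets. Erythroid marker means were 8.33 to 8.48 in LP and 8.38 to 9.70 in control, and leukocyte marker means 7.56 to 7.62 in LP and 7.48 to 8.22 in control, both overlapping. Their part in the values of the 5 genes was not tested. Schwann cell and neuron markers (7 of 14), which bear on the neural role of Lrrn1, averaged 7.02 to 7.19 in LP+tau, 7.12 to 7.19 in LP and 7.001 to 7.16 in control; the groups overlapped and 0 genes were called. Between LP+tau and LP, adipocyte markers (9 of 12) averaged 7.40 to 8.13 in LP+tau and 7.93 to 9.38 in LP with 0 genes called, and the part of this in the values of the 5 genes was not tested.

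The LP arrays stayed above the control arrays for all 5 genes after each scaling, in the contrast that chose the genes. Leaving out control arrays 3 and 4 cannot undo a separation from all control arrays, so that setting does not test it. The place of the LP+tau arrays was less fixed: the number above all controls became 3 after quantile normalization and 2 after cyclic loess for Mchr1, against 4, and 2 after cyclic loess for Pdlim2, against 3. For Galnt5 it became 2 after median centring and 4 in the other 3 settings, against 3, and the number below all LP arrays became 3 after median centring, against 4. Without control arrays 3 and 4, LP minus control was 0.83 for Lrrn1, 0.76 for Galnt5, 0.73 for Pdlim2, 0.77 for Mchr1 and 0.75 for Plcd4, each larger than with them. LP+tau minus control was then 0.64, 0.47, 0.35, 0.50 and 0.67 in the same order. The positions with taurine became 77.1%, 62.1%, 47.8%, 64.7% and 89.1%. After cyclic loess they were 72.6%, 54.8%, 37.2%, 54.9% and 86.7%. Ranked by position, the genes kept their order in these settings and after median centring, while after quantile normalization Galnt5 (59.6%) passed Mchr1 (57.8%).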

How the data were processed

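Per the submitters' processing notes, the authors processed the arrays in R 3.2.2 by RMA. Which release of RMA and which rat genome build they used is not given in the sources used here. Deposited values are on a log2 scale, 1 per probe set and array, and the authors' detection filter left 18957 of 29214. The authors' deposited table of 895 probe sets holds their p-values, linear group means on the intensity scale, and ratios of these means, per the file headers.

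The members and the gene lists were chosen with earlier results of these data known. All 12 arrays entered 1 limma 3.58.1 fit (R 4.3.3) with 3 group means and eBayes, with Benjamini-Hochberg adjustment over 18957 probe sets, two-sided, at an adjusted p of 0.05. For the 5 genes, only LP+tau against LP was given a p-value from that fit. Genes were named from the platform's annotation, in which 11721 probe sets carried 1 symbol and 141 several, while 7095 were unlisted; 11702 matched the RefSeq gene table. A listed gene is its probe set of highest mean. Named list genes are the up to 3 with the smallest p among those passing in a comparison, or the 1 with the smallest p where none passed; genes alike are the 3 with the highest r. Deviations of same-numbered arrays correlated above 0.1 in 3 of 12 pairs, so numbers were not used to pair. The limma test was checked on simulated data. Alternatives were a fit of the compared groups alone, the replicate block, trend and robust options, a level filter, probe sets with 1 symbol, all probe sets, 3 scalings, array weights, leaving out control arrays 3 and 4, the hepatocyte mean as a covariate, leaving out each array and an exact permutation test. The methods' t-test, the counts of list genes under the scalings and the check of the marks were added after seeing the data. The number of arrays limits the precision.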

Additional observations from a re-analysis of the deposited data

Results flagged for a closer look

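Plcd4 gave both values that stood apart within a diet. On LP+tau array 1 its log2 value was 7.10, far below the other 3 arrays of that diet, and the gap was 0.853 of the range of the group. On control array 1 it was 6.46, with a gap of 0.870 of the range. Both gaps exceed Dixon's critical value for a group of 4 samples. They are 2 of the 15 groups examined (5 genes in 3 diets), and chance marks about 1 in 20 groups.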

How the results depend on the processing

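For LP+tau minus LP, 4 of the 5 genes kept a negative difference in every alternative run. Plcd4 reversed without LP+tau replicate 1, to 0.0134. Leaving out 1 array at a time gave -0.27 to -0.09 for Lrrn1, -0.35 to -0.23 for Galnt5, -0.48 to -0.26 for Pdlim2, -0.36 to -0.20 for Mchr1 and -0.12 to 0.01 for Plcd4. The lowest adjusted p of limma over the alternatives was 0.3869, 0.3008, 0.2344, 0.3144 and 0.698 in the same order of genes. Unadjusted, Galnt5 (-0.29) had p = 0.02857 in the exact permutation test and 0.02671 in the methods' t-test, and Pdlim2 (-0.38) 0.04276 in the latter. The high LP arrays that chose the genes enter both tests, which favours a fall, so values under 0.05 support no fall. The replicate block left the 5 differences at -0.19, -0.29, -0.38, -0.27 and -0.08 and called 0, 1974 and 5456 probe sets for LP+tau against LP, LP+tau against control and LP against control, so it changed no call of the 5 genes. LP+tau against LP gave 1 call with only the 2 groups compared and 2 without control arrays 3 and 4, against 0, and 0 whichever array was left out. LP+tau against control gave 2616 calls, against 1353 with only the 2 groups, 1542 among probe sets with 1 symbol, 1201 after quantile normalization, 1137 after cyclic loess, 4276 with array weights, 907 without control arrays 3 and 4, 1067 with the hepatocyte mean as a covariate, and 620 to 2742 when 1 array was left out (620, 1717 and 1098 without LP+tau arrays 1, 3 and 4, and 1580 and 748 without control arrays 1 and 3). LP against control gave 6390, against 3863 above the median level, 3838 with 1 symbol, 2982 after quantile normalization, 2564 after cyclic loess, 3705 without control arrays 3 and 4, and 3929 to 6621 when 1 array was left out (4235 and 3929 without LP arrays 2 and 3, and 4211 without control array 3). The level and symbol filters test fewer probe sets; of the other changes the cause was not tested. The level filter removed Galnt5 and Plcd4, so no value exists for them there. With 4 pools a diet, differences within the intervals given could not be resolved.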
